A study of Rattus norvegicus with 13 samples.

Results

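The complement system is a set of blood and tissue proteins that tag and clear microbes and dying cells, and fat makes many of them. The 9 genes described here are complement components: the 3 chains of the C1q recognition molecule (C1qa, C1qb, C1qc), the protease C1s, the protease zymogens C2 and Cfb, the central protein C3, the inhibitor Serping1 and the receptor C3ar1. They were found by symbol in the platform annotation, with the brightest probe set taken where a symbol has more than 1. All 9 symbols were listed, but C2 and Cfb shared 1 probe set, so the 9 genes gave 8 measured values per array among 14757 features tested (a feature is a gene symbol, or a group of symbols that share a probe set). The value of that shared probe set cannot be assigned to either gene and is called the C2-Cfb probe set.

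Each array held the fat of 1 female rat of the outbred Sprague Dawley stock: 7 daughters of control fathers and 6 of high-fat fathers. The control fathers ate chow with 9% fat and the high-fat fathers ate pellets with 43% fat, and both were mated at 15 weeks with chow-fed females. Daughters in both groups got chow from weaning at 3 weeks, and fat was taken from them at 14 weeks; the depot, fathers and litters are not named in the labels. Daughters are named here by the numbers in the labels, which fall into the ranges 619 to 631 (3 control, 4 high-fat) and 656 to 664 (4 control, 2 high-fat). The p-values below treat each daughter as independent, which shared fathers or litters would break.

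In the classical pathway, C1q binds antibody or dying cells and its bound proteases C1r and C1s then cut C4 and C2 to build an enzyme that splits C3. In the alternative pathway, factor B (Cfb) is cut by factor D (Cfd), the protease first known in fat cells as adipsin, to build a second C3-splitting enzyme. Serping1, the C1 inhibitor, blocks C1r and C1s, and C3ar1 is the receptor for the small fragment C3a released from C3. In tissues C1q is made mainly by macrophages, while C1s, C1r and Serping1 are made largely by fibroblasts and other stromal cells.

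Log2 levels on the arrays lay between 3.24 and 14.54, and their medians between 7.66 and 7.72. Having only 13 arrays limits precision. Fat cell genes were high in every array, with Adipoq (adiponectin) between 13.64 and 13.96 and Plin1 (the lipid droplet coat) between 12.22 and 12.66. Sry, a Y-linked gene absent from females, read 6.38 to 6.62. Skeletal muscle genes were raised in 4 arrays, controls 662 and 664 and high-fat 619 and 629. Control 658 had the smallest spread of values of all arrays (SD over features 1.59, against 1.70 to 1.86 in the others) and the lowest correlation with the mean of the other arrays (0.975).

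For none of the complement components did the difference between daughters of high-fat and control fathers pass the test. In limma, a linear model fitted over all 14757 features with Benjamini-Hochberg adjustment, 0 of 8 member values passed an adjusted p of 0.05, where the background was 0% of features. At an unadjusted p under 0.05 the count was again 0 of 8, against 7.89% of all features, and an unmoderated linear model also gave 0 of 8. Group means stood higher in the high-fat group for 6 of 8, against 57.6% of all features, but for only 1 of 8 after the values were quantile-normalized again and 3 of 8 after each array was centred on its median. Under these scalings the share of all features standing higher was 54.9% and 46.3%. The median difference, high-fat minus control, was 0.029 log2 units for the 8 values and 0.025 for all features. In the fit of all 13 arrays, the widest 95% limits among the 8 values were 1.54-fold (C3) and 0.785-fold (C3ar1).

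**Figure D1:**
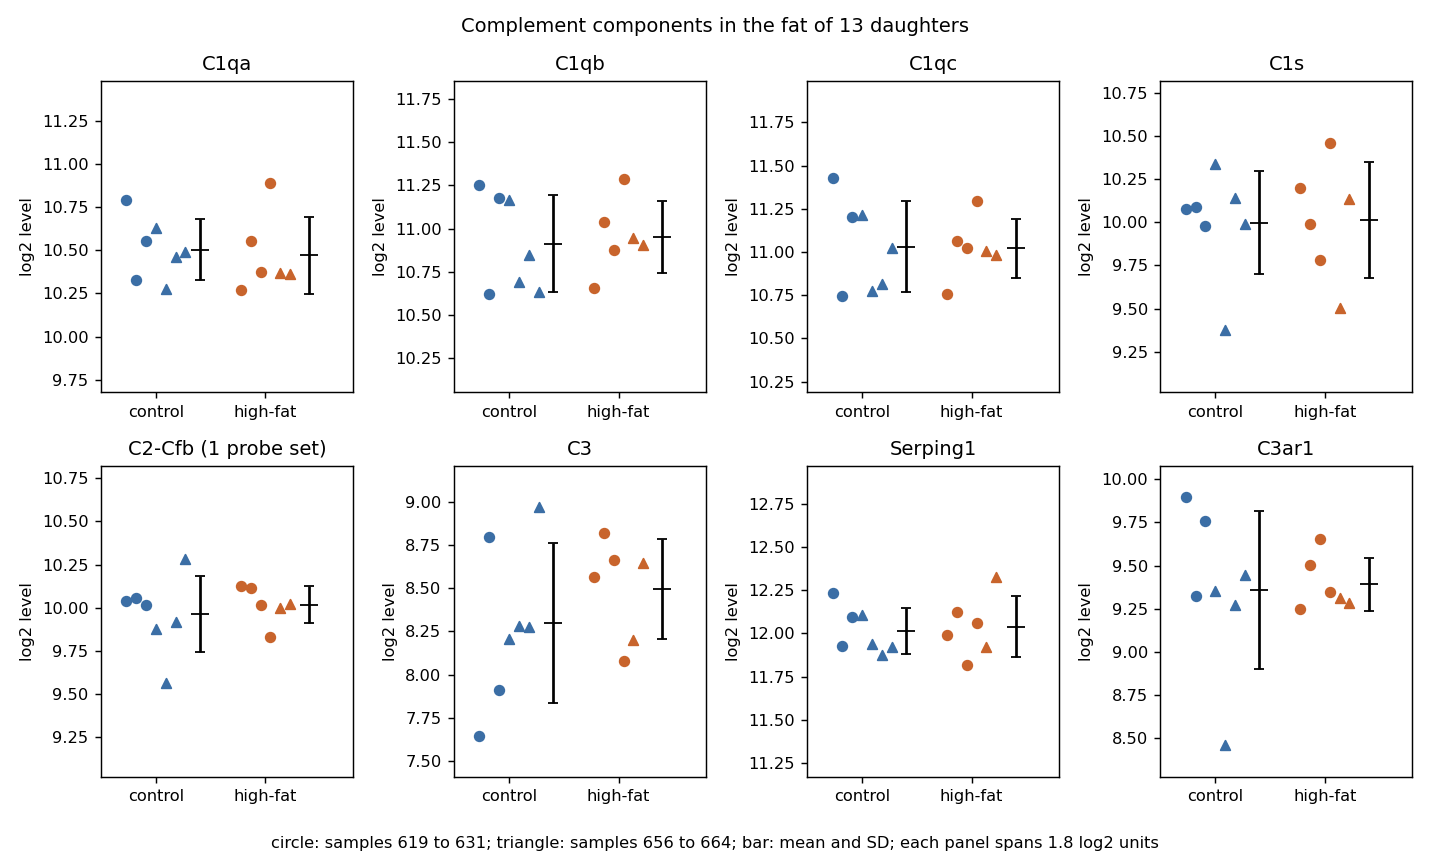
Log2 level of each complement component in each daughter, by the diet of the father, with the mean and SD of each group as a bar; circles are samples 619 to 631 and triangles 656 to 664. The groups overlap in every panel, and the lowest points of C1s and C3ar1 belong to control 658.

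C1q is a bundle of trimers, each built from an A, a B and a C chain, and the genes of the 3 chains lie side by side in the rat genome, in the order C1qb, C1qc, C1qa. C1qa ran from 10.28 through a median of 10.49 to 10.79 in controls and from 10.27 through 10.37 to 10.89 in high-fat daughters. The groups overlapped, with 4 of 6 high-fat values inside the range of the controls. The difference for C1qa was -0.034 ± 0.10 log2 units (SE; 95% interval -0.26 to 0.19; limma adjusted p = 0.89).

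C1qb ran from 10.62 through 10.84 to 11.25 in controls and from 10.65 through 10.92 to 11.29 in high-fat daughters. Of the 6 high-fat values 5 lay above the control median, yet only 1 lay above the highest control. C1qb differed by 0.038 ± 0.13 (SE; interval -0.24 to 0.31; limma adjusted p = 0.90). C1qc ran from 10.75 through 11.02 to 11.43 in controls and from 10.76 through 11.01 to 11.29 in high-fat daughters, all 6 inside the control range. Its difference was -0.0092 ± 0.12 (SE; interval -0.26 to 0.24; limma adjusted p = 0.98).

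The 3 chains moved together from animal to animal. Across the 13 arrays the correlation was 0.848 between C1qa and C1qb (Pearson r; Spearman rho 0.791), 0.884 between C1qa and C1qc (rho 0.935) and 0.896 between C1qb and C1qc (rho 0.869). Permutation p-values for r were 0.00019, 8e-05 and 5e-05, and 0.0007, 0.00044 and 0.00044 adjusted over the 11 relations computed. For rho they were 0.0024, 1e-05 (the smallest that 100000 permutations can give) and 0.00016, or 0.0065, 0.00011 and 0.00088 adjusted. Without the 2 arrays farthest from the median of the first-named gene, control 622 and high-fat 629 for each pair, r was 0.749, 0.825 and 0.842 (adjusted p = 0.023, 0.015 and 0.015 by permutation). There rho was 0.655, 0.902 and 0.793 (adjusted p = 0.075, 0.0029 and 0.031 by permutation), so C1qa with C1qb did not pass by rank.

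Within groups r was 0.854, 0.951 and 0.872 in controls and 0.941, 0.91 and 0.98 in high-fat daughters. Of these, r of C1qb with C1qc in controls did not pass (exact permutation, n = 7, adjusted p = 0.056). By rho only C1qa with C1qc passed within groups (exact permutation, adjusted p = 0.031 in each group). The adjusted p for rho was 0.13 in each group for C1qa with C1qb. For C1qb with C1qc it was 0.087 in controls and 0.13 in high-fat daughters. In samples 619 to 631 r was 0.93, 0.908 and 0.969. In samples 656 to 664 r was 0.553, 0.761 and 0.667 and did not pass (exact permutation, n = 6, adjusted p = 0.31, 0.29 and 0.29). The mean of the 3 chains was highest in control 622 (11.16), high-fat 629 (11.16), control 656 (11.00) and control 631 (10.98). The lowest means were those of high-fat 619 (10.56), control 627 (10.56) and control 658 (10.58), so both ends of the order held daughters of both kinds of father. Averaged by group, the mean of the chains was 10.82 ± 0.23 (SD, n = 7) with control fathers. With high-fat fathers it was 10.81 ± 0.20 (SD, n = 6).

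Because C1qa and C1qb varied together and lie in the same gene cluster, the 250 bases before the start of each are shown, with those of C3, the most variable component within groups, for comparison. They come from RefSeq's rat promoter table (build GRCr8), which held 4 of the 9 genes, C1qa, C1qb, C3 and C3ar1. All 3 lie on the minus strand, at chr5:154419934-154420183 for C1qa, chr5:154407828-154408077 for C1qb and chr9:2201340-2201589 for C3. Each is written 5′ to 3′ in the direction of its gene and ends at the base before the start. Capitals mark every match, on either strand, to 5 motifs: GGAAGT (core of the macrophage factor PU.1), TTGCGNAA (C/EBP), TTCNNNGAA (STAT), TGACTCA (AP-1) and an NF-kappaB motif given by name alone.
C1qa: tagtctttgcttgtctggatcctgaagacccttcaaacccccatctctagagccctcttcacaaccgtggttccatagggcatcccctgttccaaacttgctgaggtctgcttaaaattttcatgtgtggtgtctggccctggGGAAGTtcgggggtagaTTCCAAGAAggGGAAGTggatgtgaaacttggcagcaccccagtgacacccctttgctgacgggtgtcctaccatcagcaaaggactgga
C1qb: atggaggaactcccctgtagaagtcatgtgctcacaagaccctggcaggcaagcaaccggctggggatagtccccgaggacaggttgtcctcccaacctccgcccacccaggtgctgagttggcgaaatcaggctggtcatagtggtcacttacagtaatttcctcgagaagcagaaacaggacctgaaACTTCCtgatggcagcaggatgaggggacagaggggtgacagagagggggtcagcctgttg
C3: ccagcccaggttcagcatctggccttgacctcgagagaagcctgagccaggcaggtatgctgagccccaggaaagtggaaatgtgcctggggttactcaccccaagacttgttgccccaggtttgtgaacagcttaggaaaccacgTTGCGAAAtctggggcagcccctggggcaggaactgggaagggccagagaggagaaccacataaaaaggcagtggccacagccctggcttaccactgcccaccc

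The PU.1-type core occurred at 107 to 102 and at 79 to 74 bases before the C1qa start, with a STAT-type match between them at 90 to 82 that overlaps neither. In C1qb the core occurred once, on the opposite strand, at 61 to 56 bases before the start. C3 had no such core in this window and held a C/EBP-type match at 104 to 97. C3ar1, also searched, had no PU.1-type core either, and held an AP-1-type match at 72 to 66 and an NF-kappaB-type match on the opposite strand at 64 to 55. Among the 33469 promoters of the table cut to the same length, 19.2% held the PU.1-type core, 7.67% the STAT-type, 0.729% the C/EBP-type, 1.3% the NF-kappaB-type and 4.05% the AP-1-type motif. These matches describe letters only.

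C1s, the protease that cuts C4 and C2, ran from 9.37 through 10.08 to 10.34 in controls and from 9.51 through 10.06 to 10.46 in high-fat daughters. The lowest values were those of control 658 and, among high-fat daughters, 660, and the groups overlapped. Its difference was 0.014 ± 0.16 (SE; interval -0.33 to 0.35; limma adjusted p = 0.97), and -0.090 without control 658 (limma adjusted p = 0.88). C1r, its partner protease and neighbour in the genome, averaged 11.91 ± 0.18 (SD, n = 7) with control fathers against 11.90 ± 0.074 (SD, n = 6), and differed by -0.015 ± 0.078 (SE; limma adjusted p = 0.94).

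The C2-Cfb probe set reads genes that lie next to each other in the rat genome and code for the related zymogens of the classical and the alternative pathway. It ran from 9.56 through 10.02 to 10.28 in controls and from 9.83 through 10.02 to 10.12 in high-fat daughters, all 6 inside the control range. The difference was 0.052 ± 0.094 (SE; interval -0.15 to 0.25; limma adjusted p = 0.79), and -0.015 without control 658, which had its lowest value (limma adjusted p = 0.96).

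C3, on which both pathways converge, had the largest difference of the 8 values, and it too was within the spread of the animals. Levels ran from 7.65 through 8.28 to 8.97 in controls and from 8.08 through 8.60 to 8.82 in high-fat daughters. The lowest values were those of controls 622 (7.65) and 631 (7.91), the highest that of control 664 (8.97), and every high-fat value lay between. The difference was 0.20 ± 0.20 (SE; interval -0.22 to 0.62, or 0.856- to 1.54-fold; limma adjusted p = 0.63). It was 0.42 ± 0.28 (SE) in samples 619 to 631 and -0.011 ± 0.24 (SE) in samples 656 to 664, with limma adjusted p of 0.51 and 0.9999. With the 4 muscle-rich arrays left out it was 0.41 (limma, unadjusted p = 0.076, the lowest of any component in any alternative; adjusted p = 0.79). The difference between the ranges, -0.43 ± 0.41 (SE), did not pass limma's interaction test (adjusted p = 0.999, with 0 of 14757 features past the threshold and 524 at an unadjusted p under 0.05).

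Serping1, which restrains C1r and C1s, was the least variable of the 8 values. It ran from 11.87 through 11.94 to 12.23 in controls and from 11.82 through 12.02 to 12.33 in high-fat daughters, with high-fat 624 lowest and high-fat 663 highest. The difference was 0.026 ± 0.084 (SE; interval -0.15 to 0.21, or 0.899- to 1.15-fold; limma adjusted p = 0.89).

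C3ar1, the C3a receptor of macrophages and other leukocytes, ran from 8.46 through 9.35 to 9.89 in controls and from 9.25 through 9.33 to 9.65 in high-fat daughters. All 6 high-fat values fell inside the range of the controls, which was stretched by control 658 at the bottom and control 622 at the top. The SD was 0.46 in controls (n = 7) and 0.16 in high-fat daughters (n = 6). Its difference was 0.033 ± 0.18 (SE; interval -0.35 to 0.41; limma adjusted p = 0.94), and -0.12 without control 658 (limma adjusted p = 0.82).

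**Figure D2:**
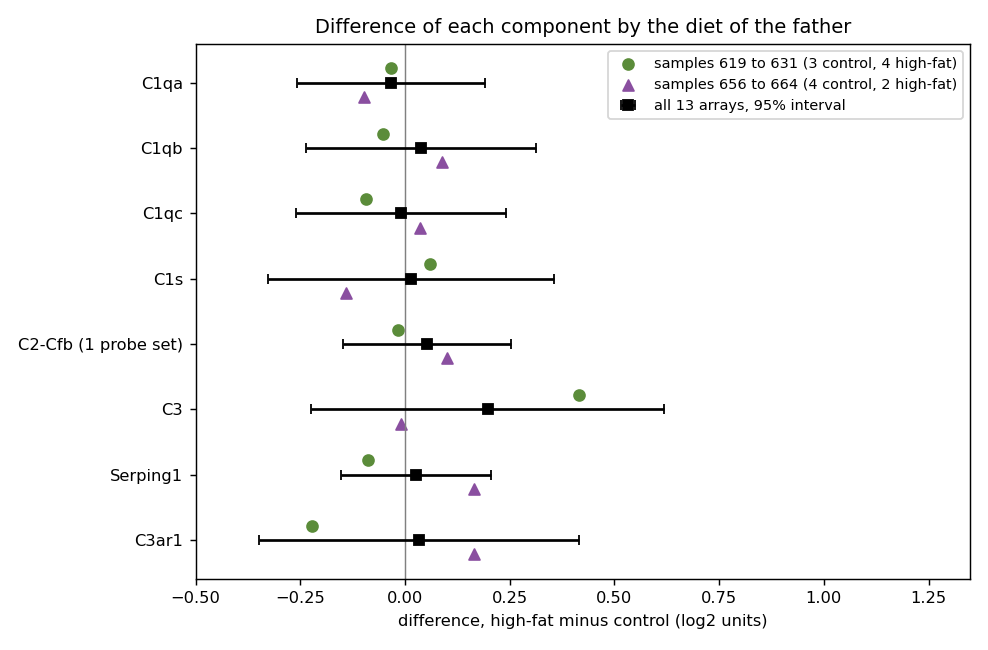
Difference between daughters of high-fat and control fathers in log2 units for each component, with squares and 95% intervals from limma on all 13 arrays, circles for samples 619 to 631 and triangles for samples 656 to 664. Every interval includes 0, and the 2 number ranges lie on opposite sides of 0 for C1qb, C1qc, C1s, the C2-Cfb probe set, C3, Serping1 and C3ar1.

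In no number range did a component pass, where the background of adjusted calls was 0% in each. For C1qa the differences were -0.035 ± 0.16 and -0.098 ± 0.12 (SE). For C3ar1 they gave -0.22 ± 0.15 and 0.16 ± 0.27, and for Serping1 -0.088 ± 0.10 and 0.16 ± 0.14 (SE). In each of the 8 interaction tests the adjusted p was 0.999, so the ranges were not shown to differ, and 0% of all features passed that test.

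The components did not vary to the same degree between animals of 1 group. The pooled SD within groups was 0.39 log2 units for C3, 0.35 for C3ar1 and 0.32 for C1s, larger than in 95.03%, 93.3% and 91.1% of all features. It was 0.25 for C1qb, 0.23 for C1qc and 0.20 for C1qa, at percentiles 84.2, 80.3 and 73.3. For the C2-Cfb probe set it was 0.18 (percentile 65.3), and for Serping1 0.15 (percentile 53.6), near the median of all features, 0.15. From the lowest to the highest of 13 arrays, C3ar1 spanned 2.70-fold, C3 2.51-fold and C1s 2.12-fold, against 1.43-fold for Serping1. The lowest C3ar1 value, 8.46, was that of control 658, and the next lowest was 9.25 in high-fat 619. For C1s the lowest was also that of control 658 (9.37), and the next lowest was 9.51 in high-fat 660. The SD of C3ar1 was 0.46 in controls and 0.16 in high-fat daughters.

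**Figure D3:**
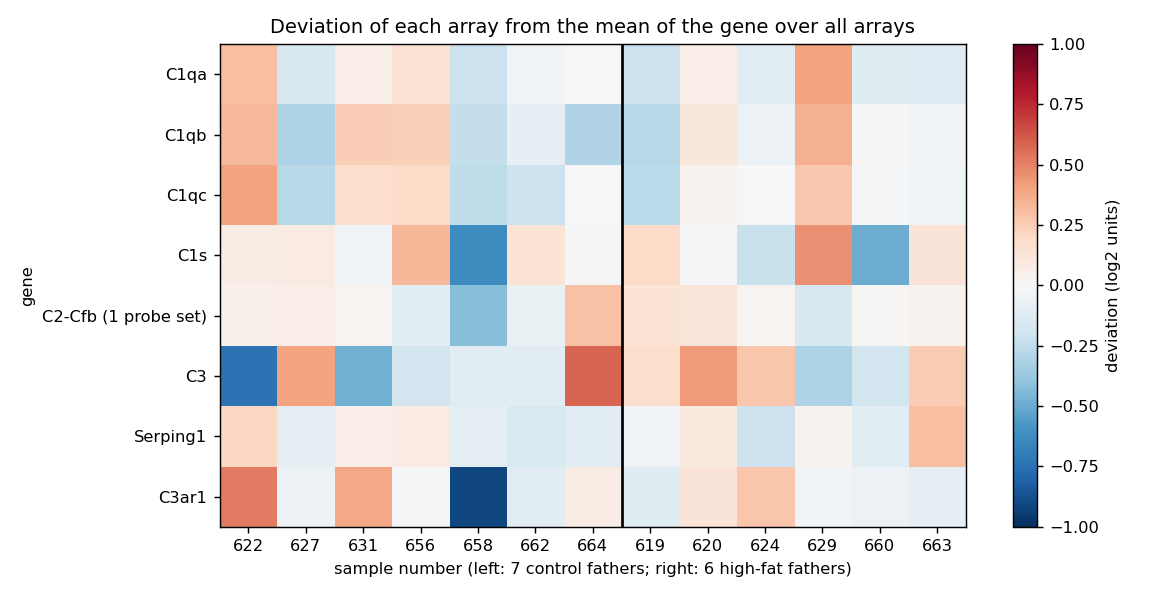
Deviation of each array from the mean of the gene over all 13 arrays, in log2 units, with control fathers left of the black line and high-fat fathers right of it. The 3 C1q chains share their high arrays (622 and 629), C3 is low in 622, and control 658 is low for C1s, the C2-Cfb probe set and C3ar1.

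Macrophages are the usual source of C1q in tissue, and C1q and C3ar1 were high in the animals where macrophage genes were high. The list held 12 measured markers, such as Csf1r, Cd68 and Cd163, none of them one of the 9 genes, and its mean ranged from 9.76 to 10.21 in controls and from 9.84 to 10.14 in high-fat daughters. In bulk tissue, fewer cells of a type and less RNA per cell cannot be told apart. Between the groups, 7 of the 12 markers stood higher and 5 lower in high-fat daughters (58.3% higher, against 57.6% of all features). After renewed quantile normalization 4 stood higher, against 54.9% of all features, and after centring 7, against 46.3%. As deposited the median difference was 0.055. In limma 0 passed, also at an unadjusted p under 0.05 (7.89% of all features). The mean of the C1q chains correlated with the macrophage list at r = 0.786 (rho 0.808) over 13 arrays, with a permutation p of 0.0015 for r and 0.0014 for rho (0.0033 and 0.0051 adjusted). It was 0.742 without high-fat 619 and control 658 (rho 0.718, with adjusted p = 0.023 for r and 0.05 for rho by permutation). By group it was 0.803 in controls and 0.775 in high-fat daughters, by range 0.869 in samples 619 to 631 and 0.604 in samples 656 to 664, and of these 4 only the range 619 to 631 passed adjustment (exact permutation, n = 7, adjusted p = 0.0098).

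C3ar1 followed the same list at r = 0.821 (rho 0.736; permutation p = 0.00031 and 0.0055, adjusted 0.00085 and 0.011). Control 658 was lowest for both, and without it and high-fat 619 r was 0.662 (rho 0.564; adjusted p = 0.05 and 0.12 by permutation). By group r was 0.937 in controls (rho 0.679) and 0.524 in high-fat daughters (rho 0.714), with adjusted p for r of 0.039 and 0.44 by exact permutation. In samples 619 to 631 r was 0.763 (rho 0.857; exact permutation, adjusted p = 0.063 and 0.044). In samples 656 to 664 r was 0.831 but rho was -0.029 (exact permutation, adjusted p = 0.29 and 1.0). With the macrophage mean as a covariate the group difference of C3ar1 was -0.031 and that of C1qb -0.0046 (limma adjusted p = 0.92 and 0.98).

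Serping1 varied with the progenitor and fibroblast list, whose 13 markers include Pdgfra, Dcn and Col1a1. The correlation was r = 0.753 (rho 0.731; permutation p = 0.0032 and 0.0061, adjusted 0.0059 and 0.011), and 0.744 without high-fat 624 and control 658 (adjusted p = 0.023 by permutation). It was 0.628 in controls, 0.88 in high-fat daughters, 0.931 in samples 619 to 631 and 0.592 in samples 656 to 664, and passed adjustment only in the range 619 to 631 (exact permutation, n = 7, adjusted p = 0.012). C1s also correlated with that list (r = 0.602, rho 0.407; permutation p = 0.028 and 0.17, adjusted 0.044 and 0.23). This relation did not hold without high-fat 624 and control 658, where r was 0.247 (adjusted p = 0.54 by permutation); by group r was 0.793 and 0.415, and by range 0.391 and 0.861, none of which passed adjustment. The list mean itself was 11.76 ± 0.14 (SD, n = 7) with control fathers against 11.75 ± 0.15 (SD, n = 6). Of its 13 markers 5 stood higher and 8 lower in high-fat daughters (38.5% higher, against 57.6% of all features), with 0 passing in limma. After renewed quantile normalization 2 stood higher, against 54.9% of all features, and after centring 2, against 46.3%.

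The remaining relations did not pass over all 13 arrays. C1s and Serping1, protease and inhibitor, gave r = 0.397 (rho 0.341; permutation p = 0.18 and 0.25, adjusted 0.22 and 0.28), with 0.286 and 0.487 by group and 0.311 and 0.446 by range. C3 and the C2-Cfb probe set gave r = 0.452 (rho 0.556; permutation p = 0.12 and 0.05, adjusted 0.16 and 0.079), with 0.34 and 0.801 by group and 0.435 and 0.724 by range.

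The mesothelium is the cell layer over visceral fat, and its list had the largest median difference between the groups of the marker lists measured. Of its 10 measured markers 0 stood higher in high-fat daughters, against 57.6% of all features, but 3 did after the values were quantile-normalized again. The median difference was -0.33, with 2 markers at an unadjusted p under 0.05 (7.89% of all features) and 0 past adjustment in limma. Calb2 averaged 4.80 in controls, below every reading of Sry, and differed by -0.013. Krt8 and Krt7 differed by -0.029 and -0.0018, and the other markers by between -0.27 (Krt18) and -0.53 (Upk1b). The list mean ranged from 7.13 to 8.41 in controls and from 7.13 to 8.11 in high-fat daughters. C3 correlated with this list at r = 0.334 (rho 0.363; permutation p = 0.26 and 0.22, adjusted 0.29 and 0.27), and 0.168 and 0.642 by range. In controls r was 0.778 and rho 0.929 (exact permutation, n = 7, adjusted p = 0.071 and 0.037), so the rank correlation passed there. In high-fat daughters r was -0.168 and rho -0.486 (exact permutation, n = 6, adjusted p = 0.77 and 0.43). Whether the groups differ in this relation was not tested, and over all arrays r was -0.05 without controls 631 and 664. For the C2-Cfb probe set and the same list r was 0.00 and rho 0.157 (permutation p = 1 and 0.61). With the mesothelium mean as a covariate the difference of C3 was 0.34 (limma adjusted p = 0.72). Of the other lists, 0 of 10 T and NK cell markers stood higher, as deposited and under both other scalings. The shares of all features were 57.6% as deposited, 54.9% after renewed quantile normalization and 46.3% after centring. The median difference of the 10 markers was -0.17 as deposited. Cd3g and Cd3d averaged 5.94 and 6.19 in controls, below the readings of Sry (6.38 to 6.62). Cd4, the brightest of the 10, averaged 12.05 in controls, against 8.64 for the next brightest, Nkg7, and differed by -0.036. Which cells gave the Cd4 signal was not tested. All 4 endothelial markers stood higher, but 2 of 4 after renewed quantile normalization, and 0 markers of either list passed adjustment in limma.

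**Figure D4:**
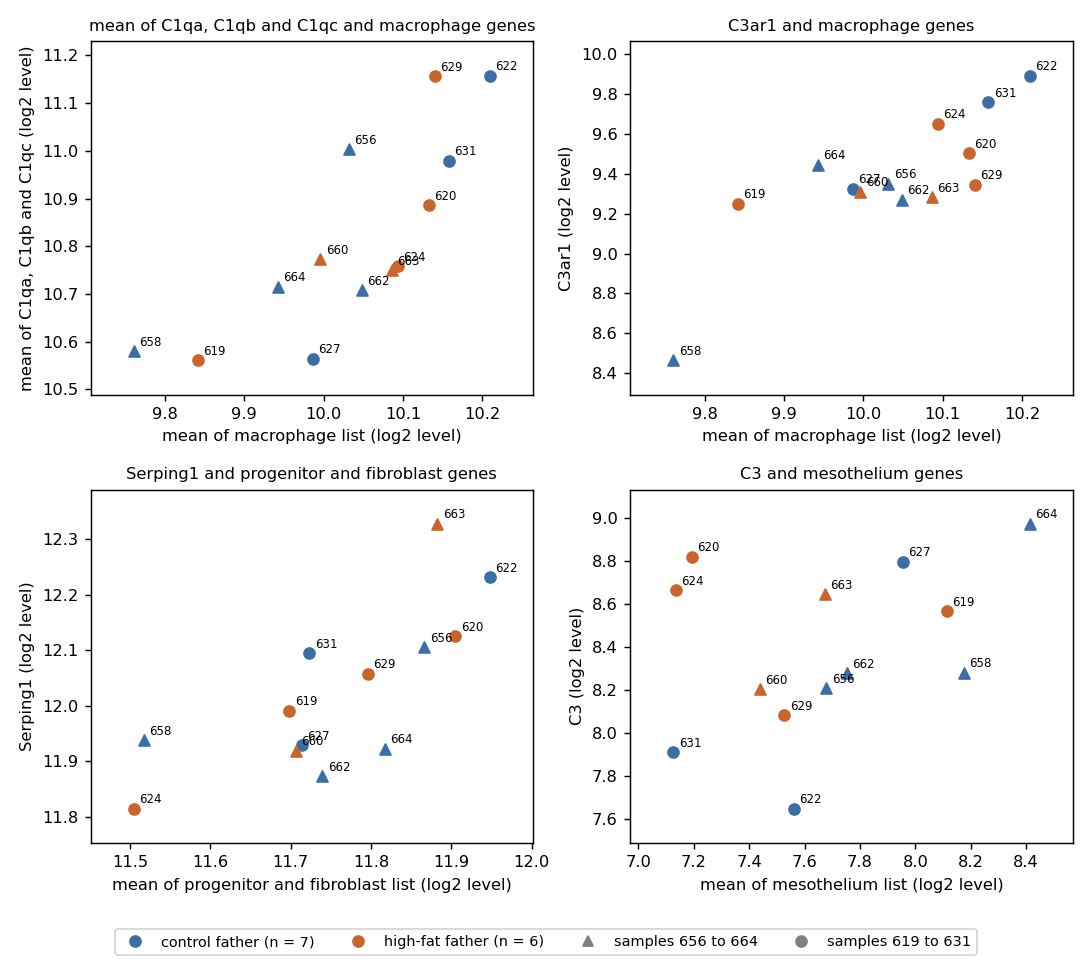
Log2 level of the C1q chains (mean), C3ar1, Serping1 and C3 in each daughter against the mean log2 level of a marker list in the same array, with sample numbers beside the points. C1q, C3ar1 and Serping1 are higher where their list is higher, and control 658 lies lowest for C3ar1 and for macrophage markers.

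For each component the 3 genes with the most similar profile over the 13 arrays, among 14487 named genes that are not members, were found by Pearson r. They were Dbndd2 (0.915), Ddr2 (0.878) and Tnxa-ps1 (0.867) for C1qa, Fcmr (0.895), Ctss (0.875) and Folr2 (0.846) for C1qb, and Ms4a6bl1 (0.834), Cpt1a (0.829) and Shtn1 (0.816) for C1qc. The mean of the 3 chains was nearest to Ctss (0.848), Dbndd2 (0.84) and Cndp1 (0.814). C1s had the closest companions, Pon3 (0.964), Ctdnep1 (0.942) and Ddx21 (0.935), and C3 the least close, Timm10 (0.777), Ivd (0.761) and Msl3l2 (0.759). C3ar1 was nearest to Fermt3 (0.943), Unc93b1 (0.94) and Cyth4 (0.937), Serping1 to Lcn2 (0.844), Scrn1 (0.813) and Dcn (0.813, a marker of the progenitor list), and the C2-Cfb probe set to Csf2rb (0.901), Ttyh3 (0.885) and Rnf149 (0.881). With so few arrays and so many genes, high values arise easily, and these are given as a description.

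Other genes of the complement system were taken from a list of the pathway. Of 53 symbols listed, 42 had a probe set, giving 41 values since C4a and C4b also share one. In high-fat daughters 19 stood higher and 22 lower (46.3% higher, against 57.6% of all features), with a median difference of -0.015. Among those above the median level of all features the median difference was 0.033. In limma 0 passed adjustment, and 2 had an unadjusted p under 0.05 (7.89% of all features). Those were C1qbp, a mitochondrial protein that binds C1q (0.17 ± 0.075, SE), and Fcnb, a ficolin that starts the lectin pathway (-0.16 ± 0.073), each with a limma adjusted p of 0.53.

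Cfd, the factor D that cuts factor B and a major product of fat cells, averaged 12.42 ± 0.22 (SD, n = 7) with control fathers against 12.65 ± 0.19 (SD, n = 6) with high-fat fathers. It differed by 0.23 ± 0.11 (SE; limma adjusted p = 0.53), which did not pass. All 7 fat cell markers stood higher in high-fat daughters as deposited, after renewed quantile normalization and after centring. In the same order the shares of all features standing higher were 57.6%, 54.9% and 46.3%. The median difference of the 7 markers was 0.10, and 3 had an unadjusted p under 0.05 in limma, against 7.89% of all features. Those 3 were Fabp4 (0.20 ± 0.063), Lipe (0.16 ± 0.053) and Plin1 (0.18 ± 0.062, SE). None of the 7 passed limma's adjustment (adjusted p = 0.53 for these 3), and their part in the Cfd value was not tested. C8g, a chain of the membrane attack complex, differed by 0.27 ± 0.13 (SE; limma adjusted p = 0.53). The C4a-C4b probe set, which reads the protein cut by C1s, had means of 12.47 ± 0.17 (SD, n = 7) and 12.43 ± 0.11 (SD, n = 6) and differed by -0.035 ± 0.080 (SE; limma adjusted p = 0.84).

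**Figure D5:**
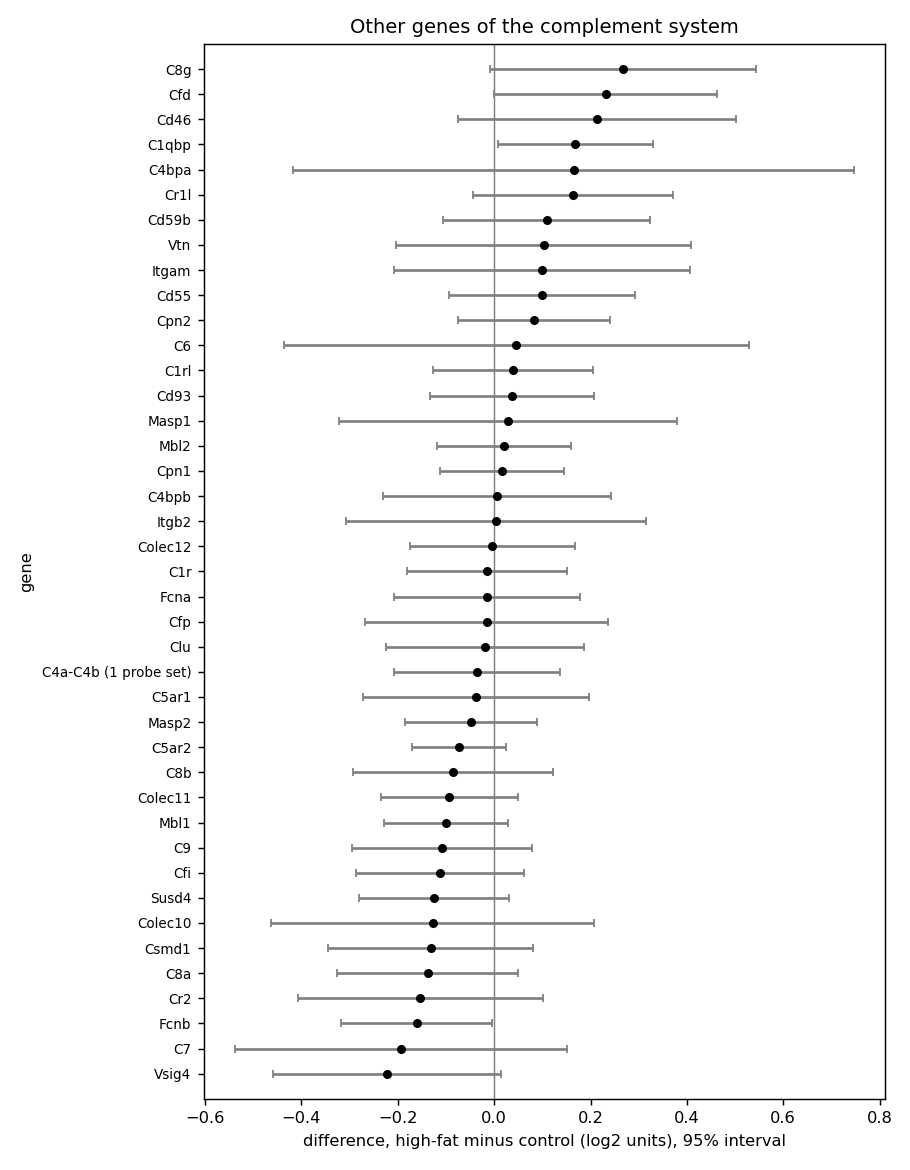
Difference between daughters of high-fat and control fathers, in log2 units with 95% limma intervals, for the 41 other complement values. The intervals of C1qbp and Fcnb exclude 0, none passed adjustment over all features, and Cfd lies at 0.23.

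Interferons and interleukin-6 are known inducers of C2, Cfb, C3, C1s and Serping1. Of 26 measured genes of these signals and their responses, 22 stood higher and 4 lower in high-fat daughters, with a median difference of 0.078. The background was 57.6% of features higher. After renewed quantile normalization 17 of the 26 stood higher, against 54.9% of all features, and after centring 18 of the 26, against 46.3%. None passed limma's test after adjustment, and 2 had an unadjusted p under 0.05, a share near the 7.89% of all features. The 3 of smallest p are named by rule. Rsad2, an antiviral protein induced by interferon, differed by 0.42 ± 0.10 (SE), Stat2, a transducer of the interferon signal, by 0.22 ± 0.098, and Mx2, another antiviral protein, by 0.32 ± 0.17, each with a limma adjusted p of 0.53. Whether these bear on the complement values was not tested.

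The liver makes most complement of the blood, and its markers were checked. Of 6 liver markers, Apoa1 read at most 7.12, Ahsg 6.89, Serpina1 7.02 and Fgb 6.14 in any array, while Alb ranged from 10.73 to 12.94. Ttr (transthyretin) read 12.75 in high-fat 663 and between 6.19 and 6.62 in the other 12 arrays. High-fat 663 also had the highest Serping1, and without it the Serping1 difference was -0.032 (limma adjusted p = 0.85).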

How the data were processed

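Fat RNA of 13 rats was hybridised as biotin-labelled cRNA to Affymetrix arrays, per the labels' protocols. The deposited table holds log2 values of 29214 probe sets that the authors made with RMA and Partek, per the submitters' processing notes; the sources used here give no versions or filters. RMA pulls arrays toward a common distribution, which can shrink differences shared by many genes. Per the platform annotation 15310 probe sets have 1 symbol, 323 have several and 13581 are not listed. Each symbol, or joined group of symbols, kept its brightest probe set (14506 single and 251 joined features), so that the probe set of C2 and Cfb stayed in. No scanner files were used, so detection was not assessed.

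Groups were compared with limma 3.58.1 in R 4.3.3 (lmFit, eBayes, no covariate, two-sided, Benjamini-Hochberg over all features, threshold 0.05). Correlations used 100000 permutations, or all orders for up to 7 arrays, two-sided. Their p-values were adjusted over the 11 relations, separately for r and rho and for each set of arrays. A relation between C2 and Cfb could not be computed. Members, gene lists and tests were chosen with earlier results of these data known. Named genes were the members, Cfd, C1r, C4a or C4b, the 4 other complement genes and 3 inducers of smallest p, the 3 nearest genes of each member and list markers; 1 further gene of the rule is not reported here. On simulated data with 200 changed features among 14757, limma called 26% of changes of 0.25, 73.2% of 0.5 and 96% of 1 log2 unit, and 0.0467% of unchanged features. The simulated noise was independent for each feature, and the changed features were drawn at random from all. These shares are therefore not those for a variable member such as C3, whose SD within groups was 0.39 against a median of 0.15. Alternatives were other scalings, filters, probe rules, variance models, covariates and subsets of arrays. The scalings of the marker and inducer lists were added after their counts were seen.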

Additional observations from a re-analysis of the deposited data

Results flagged for a closer look

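C1s in control daughter 658 read 9.37, far below the other 6 control daughters (9.98 to 10.34). That array also had the lowest level of C3ar1, of the C2-Cfb probe set and of the macrophage list. Without it the C1s difference was -0.090 in place of 0.014, and its part in the result beyond that was not tested.

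The mean of the liver marker list was 8.55 in high-fat daughter 663, with a gap to the next daughter of 0.91 of the range of the group, and Ttr read 12.75 there. Of 28 groups examined in this way 2 had a sample so far out, and chance flags about 1 in 20. Of the other liver markers, Apoa1, Ahsg, Serpina1 and Fgb read at most 7.12, 6.89, 7.02 and 6.14 in any array, 663 included.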

How the results depend on the processing

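No adjusted call existed among the components to lose: in all 29 alternatives 0 features passed an adjusted p of 0.05 and 0 components had an unadjusted p under 0.05, with a lowest component adjusted p of 0.46. Signs of such small differences changed often, and the cause was not tested. The share of all features standing higher was 57.6% as deposited, 54.9% after renewed quantile normalization and 46.3% after centring. It was not computed for the other alternatives, so their counts of components standing higher have no background to be set against. After renewed quantile normalization the value was -0.038 for C1qb, -0.075 for C1s, -0.037 for the C2-Cfb probe set, -0.024 for Serping1 and -0.049 for C3ar1, and 1 of 8 components stood higher. After centring each array on its median the value was -0.023 for C1s, -0.010 for Serping1 and -0.0036 for C3ar1, and 3 of 8 components stood higher. With array weights the value was -0.065 for C1s and -0.018 for C3ar1. Adjusted for the number range, the value was -0.028 for C1s and -0.053 for C3ar1. In samples 619 to 631 the value was -0.053 for C1qb, -0.017 for the C2-Cfb probe set, -0.088 for Serping1 and -0.22 for C3ar1, and 2 of 8 components stood higher. In samples 656 to 664 the value was 0.037 for C1qc, -0.14 for C1s and -0.011 for C3. With array spread as a covariate the value was -0.013 for C1qb, -0.21 for C1s, -0.043 for the C2-Cfb probe set and -0.19 for C3ar1, and 2 of 8 components stood higher. Without the 4 arrays with most muscle signal the value was -0.042 for C1qb, -0.12 for C1s and -0.013 for Serping1, and 3 of 8 components stood higher, while C3 moved from 0.20 to 0.41 (unadjusted p = 0.076). With the macrophage mean as a covariate the value was -0.0046 for C1qb, -0.016 for C1s and -0.031 for C3ar1, and 3 of 8 components stood higher. With the mesothelium mean as a covariate the value was -0.095 for C1qb and -0.13 for C3ar1. Leaving out each array in turn gave differences from -0.12 to 0.014 for C1qa, -0.030 to 0.097 for C1qb, -0.064 to 0.058 for C1qc, -0.090 to 0.11 for C1s, 0.089 to 0.31 for C3, -0.12 to 0.12 for C3ar1, -0.015 to 0.11 for the C2-Cfb probe set and -0.032 to 0.071 for Serping1, with 3 to 8 of 8 components higher and the fewest without control 658. The correlation of C3 with the mesothelium list was -0.168 in high-fat daughters and -0.05 without control 631 and control 664, and that of the C2-Cfb probe set was -0.383 without the same 2 arrays. The median component difference stayed between -0.061 and 0.063 log2 units in all alternatives. The count of all features with an unadjusted p under 0.05, 1165 here, ran from 134 in samples 656 to 664 to 2594 without high-fat 660. Leaving out features with several symbols, tried after the shared probe set was seen, changed no sign. No paired analysis was possible because the groups share no sample number.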
